A study of Rattus norvegicus with 6 samples.

Results

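The 6 genes described here are the rat genes for the chains of the major histocompatibility complex (MHC) class II molecules, RT1-Ba (ENSRNOG00000000451), RT1-Bb (ENSRNOG00000032708), RT1-Da (ENSRNOG00000032844) and RT1-Db1 (ENSRNOG00000033215), with Cd74 (ENSRNOG00000018735) and Ciita (ENSRNOG00000002659). They are 6 of the 32883 genes listed for every library, and all 6 had counts. They were chosen by name with their levels in these data already known, so their levels and ratios are given as a description, without a test. Single-cell RNA sequencing was performed on the pancreas of 6 male Wistar rats after collagenase digestion and islet enrichment, with 2 rats in each of 3 groups and 1 library for each rat. The young rats were 2 months old and were taken at baseline on normal diet, the old rats were 20 months old after 18 months on normal diet, and the HFHF-old rats were 20 months old after 18 months on a high-fat, high-fructose (HFHF) diet. No gene was deleted and no cell type was sorted, and each group was represented by 2 animals of an outbred strain. The comparison of old with young rats concerns age, and that of HFHF-old with old rats concerns diet. The young rats were taken at the start of the feeding and the others 18 months later, so age and time of collection cannot be told apart.

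MHC class II molecules present peptides from engulfed proteins to CD4 T cells and are made mainly by dendritic cells, B cells and activated macrophages. Each molecule is a pair of an alpha and a beta chain. RT1-Ba and RT1-Bb encode the alpha and beta chains of RT1-B, the rat counterpart of HLA-DQ, while RT1-Da and RT1-Db1 encode those of RT1-D, the counterpart of HLA-DR. Cd74 encodes the invariant chain, which fills the groove of new class II molecules and guides them to the endosome, and Ciita encodes the transactivator that is recruited to the promoters of all these genes. The chain genes lie side by side in the MHC, and some of them are among the most polymorphic genes of the genome.

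The promoters of the 4 chain genes are shown because all 4 hold letters of the boxes known from class II promoters, while the level of 1 of the 4, RT1-Bb, differed between the rats more than that of the others. Promoter sequences from RefSeq (build GRCr8) were given for 5 of the 6 genes, all but Ciita. The stretches begin 80 bases before the Y box and end 10 bases after it, upstream of the annotated start in each case. They read 5′ to 3′ in the direction of the gene. Capitals mark CTGATTGG (Y box), any match to CCTAGCAACAGATG (X box) with at most 3 mismatches, and TGACGTCA (X2 box).
RT1-Da, chr20:4515283-4515380, plus strand: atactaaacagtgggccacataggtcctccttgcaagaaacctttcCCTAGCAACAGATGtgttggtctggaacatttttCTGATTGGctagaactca
RT1-Db1, chr20:4560228-4560325, minus strand: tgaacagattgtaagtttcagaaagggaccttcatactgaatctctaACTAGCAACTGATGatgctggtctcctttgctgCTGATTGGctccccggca
RT1-Ba, chr20:4576931-4577028, plus strand: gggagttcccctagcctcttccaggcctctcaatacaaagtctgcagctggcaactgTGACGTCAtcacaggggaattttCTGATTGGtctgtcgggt
RT1-Bb, chr20:4604165-4604262, minus strand: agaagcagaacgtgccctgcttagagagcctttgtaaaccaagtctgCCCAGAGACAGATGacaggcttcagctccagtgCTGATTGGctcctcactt

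All 4 chain genes held the Y box letters, with the first base between position -83 in RT1-Db1 and position -46 in RT1-Ba relative to the annotated start. The X box letters were taken from the RT1-Da promoter itself, 20 bases before its Y box. The exact match and the spacing in RT1-Da were therefore fixed in advance. Against these letters RT1-Db1 had 2 mismatches and RT1-Bb 3, each followed after 19 bases by the Y box. RT1-Ba had no match with at most 3 mismatches, and held TGACGTCA beside that position, towards the Y box. The promoter window of Cd74, the fifth that was given, held no Y box letters, and its X box match had 3 mismatches at position -220. Over all 33469 promoter windows of 300 bases, read on both strands, 3.50% held the Y box letters, 2.84% an X box match of this kind, 0.0538% both, and 1.83% TGACGTCA. These letters are those of the reference genome, and the promoters of the 6 rats were not read.

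The libraries held between 77387928 and 166875258 unique molecular identifiers (UMIs, 1 for each captured transcript end), and 75201 of 78024 barcodes were kept as cells. Of the barcodes, 636 occurred in more than 1 library, 584 of them among the kept cells. Cell classes were formed without the 6 genes, their pathway genes and all RT1 genes, and were named by markers. Dendritic-like cells showed 10 of 11 listed markers at a log2 fold of at least 1 over all other cells, B-like cells 9 of 9, macrophage-like cells 11 of 12, endothelial-like cells 9 of 9, fibroblast-like cells 10 of 10 and islet-like cells 11 of 12. HFHF-old replicate 2 stood apart from the other libraries, with 7955 NK-like cells among its 11716 kept cells, 68 macrophage-like cells and 17 islet-like cells. Levels are counts per 1000000 UMIs (CPM) of a class in a library. A UMI stands for a transcript end whatever the length of the transcript, so no length scaling was made. Fewer cells of a class do not lower a level of this kind.

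Dendritic-like cells held the highest class II transcript level of any named class, the sum of the 4 chain genes and Cd74. That sum was 39186 ± 5543 CPM (SD, n = 6 rats), and its lowest value over the rats, 35402, lay above the highest value in macrophage-like cells, 29166. Macrophage-like cells had 15936 ± 9667 and B-like cells 15931 ± 2550 CPM (SD, n = 6 each), and these neighbours did not differ beyond their spread. Plasma-like cells followed at 6594 ± 2520 (SD, n = 5 rats with at least 10 cells), and their highest value, 9190.1, lay below the lowest of B-like cells, 13170. Endothelial-like cells had 1709 ± 1468, fibroblast-like cells 1096 ± 830 and islet-like cells 981 ± 1149 CPM (SD, n = 6 each), with overlapping values. The islet-like value rested on the 17 cells of HFHF-old replicate 2, and without that library it was 521 ± 242 CPM (SD, n = 5). T-like cells had 371 ± 132 and NK-like cells 272 ± 98.9 CPM (SD, n = 6 each).

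In dendritic-like cells, which numbered 377, 105, 124, 684, 278 and 99 in the 2 young rats, the 2 old rats and the 2 HFHF-old rats (replicate 1 before replicate 2, the order used throughout), Cd74 was the most abundant of the 6 transcripts. It stood at 15107, 13999, 14344, 16874, 15191 and 14690 CPM, so that the highest rat exceeded the lowest by 1.21-fold. RT1-Da, the alpha chain of RT1-D, had 7634, 8573, 7535, 10602, 7643 and 7458 CPM, with only old replicate 2 above 10000. RT1-Db1, its beta chain, had 7202, 7527, 9436, 11484, 8118 and 7951 CPM, and the 2 old rats were the highest. RT1-Ba, the alpha chain of RT1-B, varied little, at 5218, 5353, 5747, 6319, 5020.0 and 5266 CPM. Both old rats were also the highest here, by a small margin.

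RT1-Bb, which encodes the partner of RT1-Ba, behaved differently in dendritic-like cells, with 240.2, 276, 5659.7, 3712, 387 and 547 CPM. Both old rats were far above the other 4, the lower of them by 6.78-fold over the highest of the others, and old replicate 1 was 23.6-fold above young replicate 1. The young and HFHF-old rats did not overlap either, but were close to each other. Ciita, the transactivator, was much less abundant, with 383, 390.1, 334, 202, 312 and 520.4 CPM, lowest in old replicate 2 and highest in HFHF-old replicate 2. Ciita therefore did not follow the order of RT1-Bb.

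**Figure D1:**
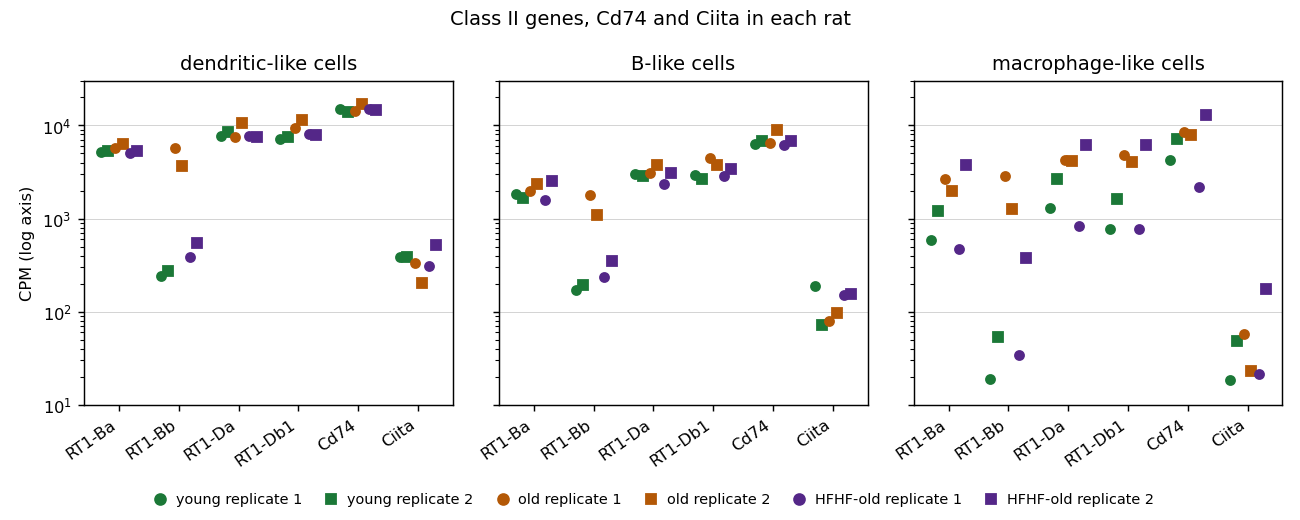
CPM (log axis) of the 6 genes in dendritic-like, B-like and macrophage-like cells, with 1 point for each rat (circles replicate 1, squares replicate 2, colours the group). In dendritic-like and B-like cells the old rats, at 5659.7 and 3712 and at 1791 and 1100.2, stand farthest from the other rats for RT1-Bb and are also the highest for RT1-Db1 by a smaller margin, while in macrophage-like cells the other genes are spread widely as well.

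The share of RT1-Bb among the UMIs of RT1-Ba and RT1-Bb sets the 2 chains of RT1-B against each other within a library, and is not changed by the total. In dendritic-like cells this share was 4.40% (95% Clopper-Pearson interval 4.14 to 4.68) in young replicate 1, 4.91% in young replicate 2, 49.6% (49.0 to 50.2) in old replicate 1, 37.0% (36.6 to 37.4) in old replicate 2, 7.15% in HFHF-old replicate 1 and 9.41% in HFHF-old replicate 2. The intervals cover counting error only. By group, the share was 4.66% ± 0.361 for the young, 43.3% ± 8.92 for the old and 8.28% ± 1.60 for the HFHF-old rats (SD, n = 2 each). The 2 old rats also differed from each other beyond counting error.

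B-like cells, of which there were 223, 30, 42, 17, 102 and 126, had lower levels of every gene, again with RT1-Bb highest in the 2 old rats. RT1-Ba had 1824, 1659.8, 1968, 2329.8, 1587 and 2558 CPM and RT1-Bb 169, 196, 1791, 1100.2, 237 and 353. The RT1-Bb share was therefore 8.47%, 10.5%, 47.6%, 32.1%, 13.0% and 12.1%, with the 2 old rats above the other 4. RT1-Db1 had 2933, 2671, 4457, 3737, 2851 and 3393 CPM, with both old rats the highest as in dendritic-like cells. RT1-Da ranged from 2345 to 3786 and Cd74 from 6151 to 8963 CPM, and over these 3 genes the highest rat was 1.46-fold to 1.67-fold above the lowest. Ciita had 187, 71.5, 79.6, 97.1, 151 and 153 CPM, with overlapping young and old rats. Old replicate 2 contributed only 17 B-like cells, and the interval of its RT1-Bb share, from 25.8% to 38.8%, was accordingly wide.

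In macrophage-like cells all 6 genes varied strongly between the rats. Cd74 had 4229.7, 7134, 8462, 7944, 2181 and 12819.9 CPM, and RT1-Ba 583, 1219.9, 2681, 1977, 468 and 3749. HFHF-old replicate 1 was the lowest and HFHF-old replicate 2 the highest for both, so the 2 rats of this group enclosed all others. RT1-Bb had 19.0, 54.0, 2859.6, 1267, 34.6 and 373 CPM, where HFHF-old replicate 2 remained below both old rats although its RT1-Ba was the highest. Its share was 3.16%, 4.24%, 51.6%, 39.1%, 6.88% and 9.04%, close to the share of the same rat in dendritic-like cells. RT1-Da had 1288, 2653, 4278, 4188, 836 and 6096 and RT1-Db1 764, 1642, 4869.6, 4048, 772 and 6127 CPM, again with HFHF-old replicate 2 the highest. Ciita ranged from 18.5 in young replicate 1 to 177 CPM in HFHF-old replicate 2, whose class held 68 cells.

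The level in macrophage-like cells differed between clusters of that class, and the rats contributed to the clusters in different numbers. A cluster of 4013 cells led by Mmp12 and Cxcl13, a macrophage elastase and a B cell attracting chemokine, had a class II sum of 29889 CPM over all rats, with 19212, 22178, 39341, 31847, 14937 and 36152 in the single rats. In the cluster led by Ltc4s and Fam43a, with 4928 cells, the sum was 4798, and in the cluster led by Vsig4 and Asgr2, with 1869 cells, it was 916 CPM. Within the Mmp12 cluster the old rats were still higher than the young rats. HFHF-old replicate 1 was still the lowest there, on 24 cells. Of the 6 macrophage-like clusters, 2 with 3522 cells came to over 90% from 1 library, HFHF-old replicate 1. They held 1857 of its cells in the Vsig4 cluster and 1576 in the cluster led by Prg4 and Olr1. HFHF-old replicate 2 had 54 of its 68 macrophage-like cells in the Mmp12 cluster. The part of this make-up in the class level was not tested. The RT1-Bb share was similar across these clusters, at 51.8% in the Mmp12 cluster, 49.4% in the Ltc4s cluster and 48.8% in the Cd209f cluster of old replicate 1, and at 3.42%, 2.50% and 3.10% in those of young replicate 1.

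**Figure D2:**
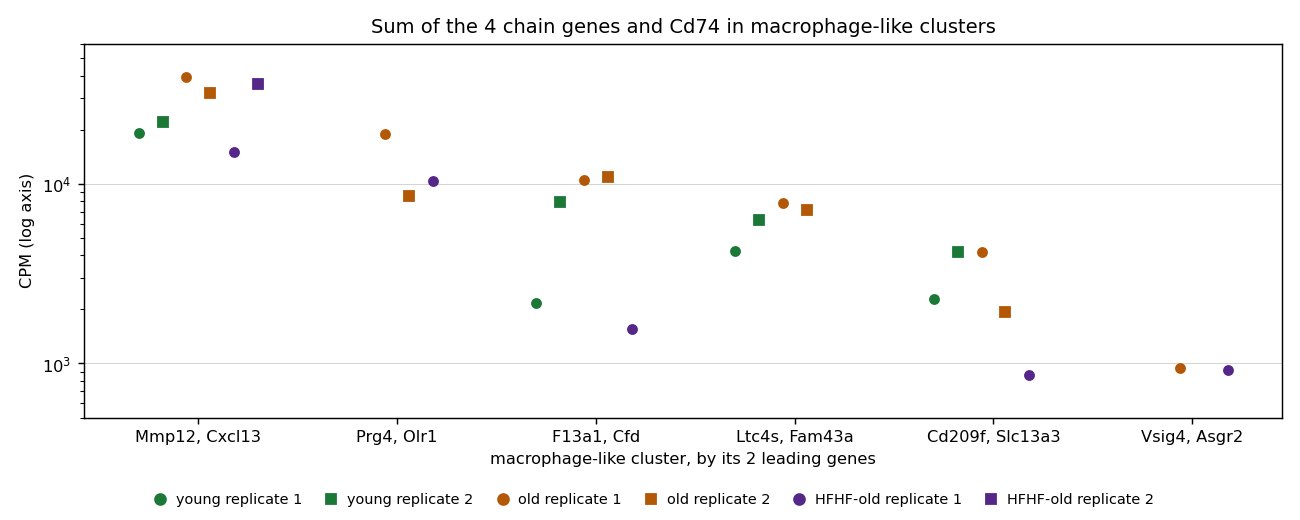
Sum of the 4 chain genes and Cd74 in CPM (log axis) in the 6 macrophage-like clusters, each named by its 2 leading genes, with 1 point for each rat that had at least 10 cells in the cluster. The Mmp12, Cxcl13 cluster lies highest in the rats that have it, at 14937 to 39341, while the Vsig4, Asgr2 cluster lies at 916 and 940.2, near the lowest point of the Cd209f, Slc13a3 cluster at 859.

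Dendritic-like cells fell into 7 clusters, which also differed in level. Xcr1 and Clec9a were among the 10 leading genes of all of them except a cluster led by Il12b and Ccl22. A cluster led by Slpi and Xcr1, the chemokine receptor of cross-presenting dendritic cells, reached 59621 CPM for the class II sum over all rats and one led by Clec9a, a receptor for dead cells, 48415. The cluster led by Il12b and Ccl22, which mark mature dendritic cells, had 15578. Ciita had 31.9 CPM in this last cluster, against 251 to 611 in the other 6, and its Cd74 level, 7381, was the lowest of the 7 as well. It is known from other work that dendritic cells shut off Ciita as they mature. Pooled over all rats, the highest sum of any cluster, 62018 CPM, was found in 626 cells led by LOC103691261, Adam8, Havcr2 and Il1r2. This cluster was closest to the dendritic class but did not meet the marker rule and was left unnamed. In single rats the Slpi cluster was higher than it in young replicate 1 (54113 against 51375), young replicate 2 (48357 against 32247) and old replicate 1 (67549 against 65691). The Slpi cluster was lower in old replicate 2 (66322 against 79628). The RT1-Bb share of the unnamed cluster was 5.14% in young replicate 1, 6.40% in young replicate 2, 49.7% in old replicate 1, 39.6% in old replicate 2 and 10.1% in HFHF-old replicate 2.

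The RT1-Bb share recurred in each rat across its cell classes. Among named classes with at least 100 UMIs of RT1-Ba and RT1-Bb together, the share ranged from 1.74% to 8.47% over 12 classes of young replicate 1 and from 2.85% to 10.5% over 10 classes of young replicate 2. In old replicate 1 it ranged from 26.9% in plasma-like cells to 58.2% in T-like cells with a median of 52.5% over 12 classes, and in old replicate 2 from 26.1% to 40.2% with a median of 38.3% over 14 classes. In HFHF-old replicate 1 it ranged from 4.32% to 13.0% over 8 classes and in HFHF-old replicate 2 from 2.84% to 12.8% over 7 classes. No class of an old rat thus fell within the range of any young or HFHF-old rat. B-like cells held the highest share in 3 of the 4 young and HFHF-old rats.

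**Figure D3:**
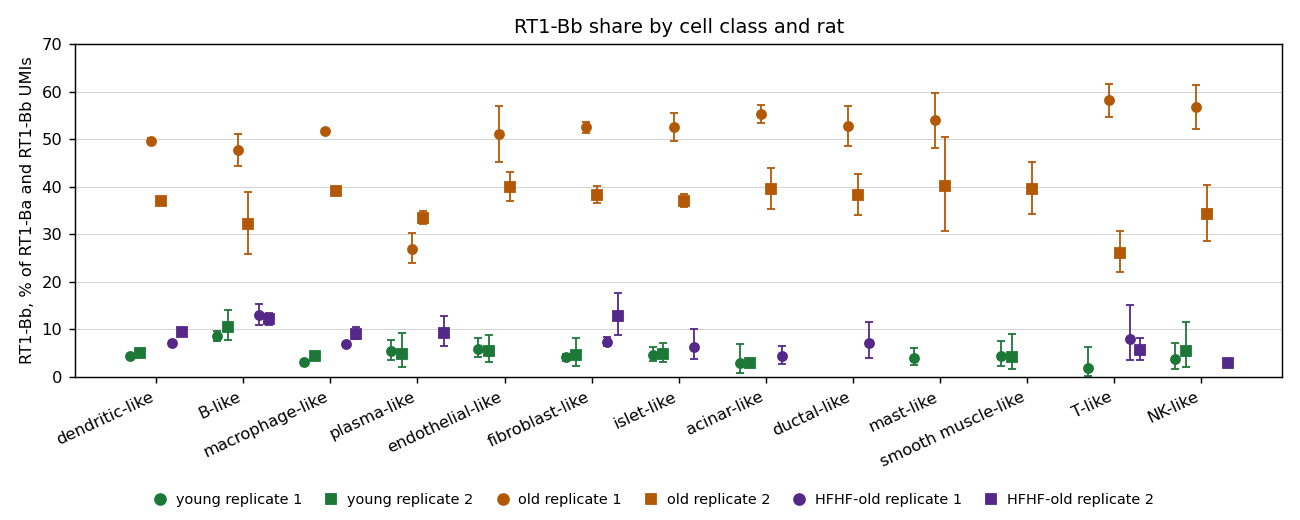
RT1-Bb as a percentage of RT1-Ba and RT1-Bb UMIs by cell class, for class and rat pairs with at least 100 such UMIs. Points are rats and bars are 95% Clopper-Pearson intervals, which cover counting error only, and all points of the 2 old rats lie at or above 26.1% while all other points lie at or below 13.0%.

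The classes are not independent evidence in this respect, since free RNA of 1 library reaches all its droplets and carries the ratio of its source. Beyond that, the 2 rats of a group were 2 individuals of an outbred strain, and the reads had been counted against Rnor_6.0, which is a Brown Norway genome. Whether the RT1-Bb allele of a rat was counted less well because it differs from that reference, or whether its reads were assigned to another RT1 gene, was not tested, because reads and genotypes were not analysed here. Allele, age and diet cannot be told apart for this gene with 2 rats in each group. An exact permutation test of 2 against 2 rats could not give a two-sided p below 0.333.

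The chains of RT1-D and the ratio between the alpha chains of the 2 molecules varied much less than the RT1-Bb share. RT1-Db1 made up 46.7% to 55.6% of the UMIs of RT1-Da and RT1-Db1 in dendritic-like cells and 48.3% to 59.2% in B-like cells. In macrophage-like cells it made up 37.2% and 38.2% in the young rats and 48.0% to 53.2% in the other 4, which did not overlap with them. The Ltc4s cluster, with 3722 and 1040 of its 4928 cells from the young rats, had 918 CPM of RT1-Da and 495 of RT1-Db1 over all rats. The Mmp12 cluster had 5936 and 5660. The part of this make-up in the share was not tested. RT1-Da made up 56.7% to 62.7% of the UMIs of the 2 alpha chains in dendritic-like cells, 54.5% to 63.3% in B-like cells and 61.5% to 68.9% in macrophage-like cells. RT1-D thus supplied the larger share of alpha chain transcripts in all 3 classes of all 6 rats. Over all 4 chains, RT1-Bb included, the RT1-D share was lowest in the 2 old rats. It was 59.8% and 68.8% there against 72.6% to 74.5% in dendritic-like cells, and 66.7% and 68.7% against 68.9% to 75.0% in B-like cells. In macrophage-like cells it was 62.3% and 71.7% against 74.8% to 77.3%.

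Cd74 exceeded each single chain in all 3 classes. It made up 42.7%, 39.2%, 33.6%, 34.4%, 41.8% and 40.9% of the 5 transcripts in dendritic-like cells, and 61.5%, 56.2%, 36.6%, 40.9%, 50.8% and 44.0% in macrophage-like cells. In both classes the 2 old rats had the lowest values. In B-like cells it made up 44.1%, 48.2%, 36.4%, 45.0%, 46.7% and 42.3%, where only old replicate 1 was lower than the rest. Part of this lies in the sum itself, which contains RT1-Bb. Without RT1-Bb, the sum in dendritic-like cells was 35162 and 35453 CPM for the young rats, 37063 and 45278 for the old rats and 35973 and 35364 for the HFHF-old rats, and only old replicate 2 remained well above the others. With it, the sums were 35402, 35729, 42722, 48991, 36360.1 and 35912 CPM. The macrophage-like clusters also differed in the share of Cd74. Over all rats it had 2983 of a sum of 4798 CPM in the Ltc4s cluster, and 12869 of 29889 in the Mmp12 cluster. The part of this make-up in the Cd74 share of the class was not tested.

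Plasma-like cells, whose kind is known to shut down class II genes as they differentiate from B cells, had at least 10 cells in all rats but young replicate 2. In the other 5 rats, Cd74 had 4149, 3303, 4488, 2939.7 and 3866 CPM, RT1-Da 2102, 238, 1459, 190.5 and 1015, and Ciita 48.6, 0.536, 17.0, 0 and 31.8. The 0 of HFHF-old replicate 1 came from 18 cells and allows up to 11.2 CPM, counting error only. The class pooled clusters of different levels. The cluster led by AABR07060872.1, AABR07034739.1 and Jchain, with 332 cells, had 281 CPM of RT1-Da and 4437 of the class II sum. A cluster with Siglech among its 10 leading genes, with 385 cells of which 304 came from old replicate 2, had 5541 and 23277. It met 4 of 7 plasma markers at a median of 830 UMIs. Siglech, Hs3st3a1 and LOC24906 were leading genes both here and in an unnamed cluster of 437 cells. This plasma-like cluster gave 41 of the 63 plasma-like cells of young replicate 1. The levels of that rat were therefore not read as those of plasma cells alone. The part of this make-up in the class level was not tested.

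Cells with at least 1000 UMIs were thinned to 1000, and cells with fewer were left out of the percentages after thinning. The cells left out included 65 of 684 dendritic-like cells in old replicate 2. They also included 983 of 5249 acinar-like cells in young replicate 2 and 274 of 648 in old replicate 2. Of the thinned cells, 94.8% to 98.8% of dendritic-like, 94.1% to 99.4% of B-like and 38.6% to 92.0% of macrophage-like cells held Cd74 in the 6 rats. RT1-Bb was then held by 19.7%, 22.5%, 86.4%, 86.4%, 30.1% and 37.8% of dendritic-like cells, while RT1-Ba was held by 77.0%, 84.4%, 89.2%, 91.2%, 89.5% and 74.6%. Acinar-like cells, which should lack these genes, held Cd74 in 26.2%, 80.3%, 45.8%, 22.6%, 14.8% and 4.15% of thinned cells. The class of young replicate 2, at 80.3%, held acinar enzymes at 122914 CPM, against 345868 to 520327 in the other rats. It also held 64500 UMIs of C1q genes, which are macrophage markers, against 72468 in the macrophage-like cells of that rat. A cluster led by Hbb and Pyy, with 2686 of its 2688 cells from this library, was part of it. The 80.3% was therefore not read as that of acinar cells alone. At full depth, 73.5%, 85.7%, 95.9%, 93.3%, 90.9% and 79.1% of the dendritic-like cells with RT1-Ba also held RT1-Bb. Most dendritic-like cells with RT1-Ba thus held at least 1 UMI of RT1-Bb in every rat, also where its level was low. Median depths of dendritic-like cells were between 6568 and 15487 UMIs, and those of acinar-like cells between 1221 and 8991.

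In endothelial-like, fibroblast-like and islet-like cells the class II transcripts were few, and their level was compared with that of free RNA. The free RNA of a library was estimated from acinar enzyme transcripts, as the level of these enzymes in a class over that in the whole library, multiplied by the class II level of the whole library. Endothelial-like cells had 1740.3, 1516, 1164, 4557, 793 and 486 CPM for the class II sum, and the estimate came to 138%, 74.9%, 198%, 59.1%, 144% and 175% of it. Only young replicate 2 and old replicate 2 were above their estimates. With doublet-like cells left out, the group means fell from 1628, 2860.3 and 639 CPM for the young, the old and the HFHF-old rats to 379.9, 685 and 368. Ciita in these cells rested on 29, 17, 3, 12, 2 and 3 UMIs.

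Fibroblast-like cells had 791, 747, 2019, 2222, 653 and 141 CPM, and the estimate came to 179.5%, 94.5%, 113%, 98.3%, 81.9% and 383% of them. The old rats were higher than the others, as were their whole libraries, with 11982 and 9076 CPM against 1085 to 5029. With doublet-like cells left out, the group means fell from 769, 2121 and 397 CPM for the young, the old and the HFHF-old rats to 203, 327 and 139. Islet-like cells had 597, 337, 571, 857, 241 and 3284 CPM, with estimates of 129%, 129%, 200%, 89.4%, 94.8% and 5.01% of these. The last value came from the 17 islet-like cells of HFHF-old replicate 2. With doublet-like cells left out, the group means of young and old rats fell from 467 and 714 CPM to 205 and 297, and that of HFHF-old rats rose from 1763 to 3434. An estimate above the measured level, as with 383%, is too high, since free RNA cannot exceed what was measured. Such an estimate cannot show that the whole level is background, and the part of free RNA in it was not tested. No expression in these 3 classes was read from levels at or below the estimate. In dendritic-like cells, by contrast, the estimate was 0.534% to 6.24% of the measured sum, in B-like cells 3.05% to 14.9% and in macrophage-like cells 0.841% to 33.9%. The estimate is rough, because acinar transcripts and class II transcripts need not reach droplets alike, and in HFHF-old replicate 2, with 59 acinar-like cells, it put the free part of B-like cells at 96.1%.

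**Figure D4:**
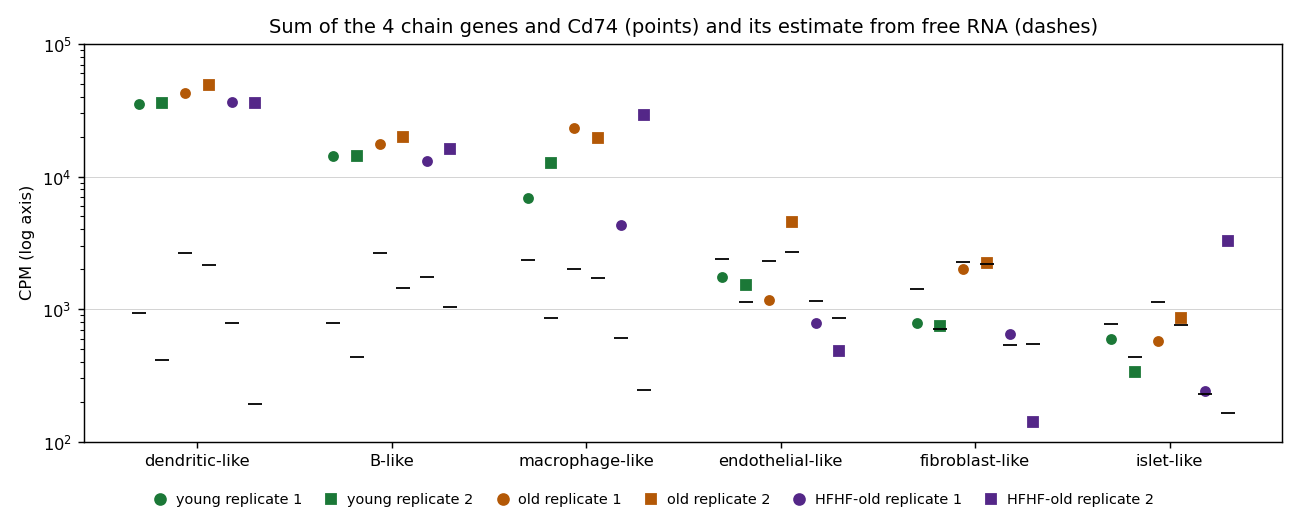
Sum of the 4 chain genes and Cd74 in CPM (log axis) in 6 cell classes, with 1 point for each rat and a dash for the level that free RNA was estimated to give. In dendritic-like and B-like cells all points lie well above the dashes, and in endothelial-like, fibroblast-like and islet-like cells most points lie near or below them.

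T-like and NK-like cells lay near or below the free RNA estimate for the sum, and in most rats held the RT1-D chains in another proportion than dendritic-like cells. In the 7955 NK-like cells of HFHF-old replicate 2, RT1-Db1 had 69.9, RT1-Ba 33.5, Cd74 23.7, RT1-Da 7.36 and RT1-Bb 0.980 CPM. RT1-Db1 was 90.5% of the UMIs of the RT1-D chains there, against 51.6% in dendritic-like cells of the same rat. In the other 5 rats it was 69.8%, 67.5%, 50.3%, 67.8% and 59.4%, and in old replicate 1, at 50.3%, it was below the 55.6% of dendritic-like cells. In T-like cells that share was 60.2%, 53.6%, 54.8%, 65.6%, 65.7% and 84.9%, and it exceeded that of dendritic-like cells in 5 of 6 rats. RT1-Db1 has a near copy, RT1-Db2, and a division of reads between them was not tested.

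The genes whose level was most like that of Cd74 were sought over 80 sums of a class in a library, among 9458 genes with a mean of at least 10 CPM. RT1-Da, RT1-Ba and RT1-Db1 led, with Spearman correlations of 0.978, 0.977 and 0.958. Of the genes outside the list, Ly86 (0.945), Tubb2b (0.922), Wdfy4 (0.890), Plekho1 (0.889), Ctss (0.888), Ncf4 (0.885), Fgd2 (0.873), Ifi30 (0.860), Ctsz (0.833) and Kmo (0.813) followed. Ctss encodes cathepsin S, which trims the invariant chain, Ifi30 a thiol reductase of the endosome, and Wdfy4 a protein needed for cross-presentation. Ciita stood at 0.829 and RT1-Bb at 0.804, the lowest of the 6. The 80 points share rats, libraries and depths, so the values are a description.

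The other genes of the pathway were tested with edgeR between groups in the 6 classes. Of 50 listed genes, 46 were in the files. They are genes for peptide loading and processing, for transcription of class II genes, for the interferon gamma response that induces Ciita, for co-stimulation, and other class II loci. With edgeR's quasi-likelihood test and Benjamini-Hochberg adjustment over all genes of a class, 0 of 238 gene and class pairs were called for old against young rats and 0 of 238 for HFHF-old against old rats, where a call needed an adjusted p under 0.05 together with a change of more than 1.5-fold. Over all genes tested, 0.0135% of pairs were called for age and 0.0045% for diet. At an unadjusted p under 0.05, 14 pairs passed for old against young, 12 of them higher in old rats, and 18 for HFHF-old against old, 13 of them higher in HFHF-old rats. These were 5.88% and 7.56% of the pairs, against 4.99% and 5.88% over all genes. DESeq2 called 0 pairs for age and 1 for diet, against 0.417% and 0.276% over all genes.

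The 1 pair called by DESeq2 was Cxcl9 in dendritic-like cells. Cxcl9 encodes a chemokine that interferon gamma induces and that draws T cells. It had 79.9, 167, 92.2, 169, 12.8 and 11.1 CPM, with both HFHF-old rats below the other 4. The log2 fold change of HFHF-old against old was -3.59 (SE 0.527) with an adjusted p of 3.56e-08 by DESeq2, and -3.59 (SE 0.525) with an adjusted p of 0.416 by edgeR. Over all alternatives tried, the adjusted p lay between 4.60e-21, with edgeR and no filter on low counts, and 0.909. Within the same list, Gbp5, a guanylate-binding protein, had 25.1, 14.6, 24.1, 16.1, 38.8 and 53.0 CPM in dendritic-like cells, which ran the other way.

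Of the genes for peptide loading and processing, RT1-DOa and RT1-DOb, which restrain the loading of peptides, had 145 and 105 CPM in dendritic-like cells as the mean over rats, and 144 and 130.3 in B-like cells. RT1-DMa and RT1-DMb, which catalyse that loading in every antigen-presenting cell, were nearly without counts, at 0.398 and 2.66 CPM in dendritic-like cells. Whether the annotation used for counting covers the ends of these 2 transcripts was not tested, so these values are not read as an absence of the genes' products. Ctss, Ctsb and Lgmn, proteases of the endosome, were highest in macrophage-like cells, at 451, 3735 and 824 CPM. Others of this list were not. Ctsl was highest in fibroblast-like cells, at 978 CPM against 250 in macrophage-like cells, and Ifi30 in dendritic-like cells, at 697 against 584. In dendritic-like cells 9 of 11 measured members were higher in old than in young rats, with a median log2 fold change of 0.44 against 0.01 over all genes, and in macrophage-like cells 8 of 11, with 0.39 against 0.02. The count was 8 of 10 in B-like, 4 of 8 in endothelial-like, 7 of 10 in fibroblast-like and 6 of 9 in islet-like cells, with medians of 0.28, 0.02, 0.20 and 0.19. None passed the test.

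Of the transcription factors, Irf8, which dendritic cells need for their development, had 1278 CPM in dendritic-like cells against 196 in B-like and 94.0 in macrophage-like cells. Rfx5, Rfxank, Nfya, Nfyb and Nfyc, whose products bind the X and Y boxes, were found in all 6 classes, at 4.12 to 114 CPM as means over rats. Rfxap, whose product binds with them, had very few counts, at 0.223 to 0.872 CPM, and its presence in a class was not read from these. Irf4 in B-like cells had 54.9, 38.2, 31.0, 64.7, 85.6 and 113 CPM, highest in the HFHF-old rats (log2 fold change against old 1.20, SE 0.501, edgeR adjusted p = 0.787). Irf8 in B-like cells had 247, 85.8, 133, 146, 275 and 292 CPM (log2 fold change of HFHF-old against old 0.94, SE 0.464, edgeR adjusted p = 0.787). Irf8 in fibroblast-like cells had 19.3, 13.7, 30.6, 31.2, 24.4 and 38.9 CPM (log2 fold change of old against young 0.87, SE 0.280, edgeR adjusted p = 0.626). None of these passed, and each was named for 1 of the 2 smallest unadjusted p among the pathway genes in its class and comparison. Of the measured members of this list, 9 of 12 in dendritic-like, 4 of 10 in B-like, 8 of 13 in macrophage-like, 8 of 11 in endothelial-like, 10 of 12 in fibroblast-like and 5 of 11 in islet-like cells were higher in old than in young rats, with median log2 fold changes from -0.13 to 0.26.

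Irf1, a transcription factor of the interferon gamma response, gave the smallest unadjusted p among the pathway genes in islet-like cells. It had 44.8, 18.3, 16.3, 9.22, 62.5 and 79.3 CPM, higher in the HFHF-old rats than in all others, with a log2 fold change of 1.93 (SE 0.411) against old rats and an edgeR adjusted p of 0.209. The HFHF-old value rests in part on the 17 cells of replicate 2. Leaving out young replicate 1 or 2 brought the adjusted p of edgeR to 0.00108 or 0.00214 (the cause was not tested), and over all alternatives it lay between 0.00108 and 0.697. For old against young rats the log2 fold change of Irf1 in islet-like cells was -0.83 (SE 0.372, edgeR adjusted p = 1.000). In fibroblast-like cells Irf1 had 116, 41.4, 57.6, 52.3, 125 and 134 CPM (log2 fold change 1.21, SE 0.426, edgeR adjusted p = 0.727), where young replicate 1 came close to the HFHF-old rats. In macrophage-like cells it had 47.8, 50.6, 47.9, 45.5, 74.9 and 114 CPM (log2 fold change 0.79, SE 0.237, edgeR adjusted p = 0.669).

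Of the interferon gamma response genes, 10 of 15 in dendritic-like, 6 of 10 in B-like, 10 of 15 in macrophage-like, 9 of 15 in endothelial-like, 8 of 15 in fibroblast-like and 7 of 14 in islet-like cells were higher in old than in young rats, with median log2 fold changes from -0.04 to 0.19, and none passed. Gbp5 was higher in the HFHF-old than in the old rats in endothelial-like, fibroblast-like and islet-like cells too, in none of which it passed the test. In B-like and macrophage-like cells its log2 fold changes were 0.14 (SE 0.598) and 1.69 (SE 0.593), with edgeR adjusted p of 0.995 and 0.669. In endothelial-like cells it had 55.0, 51.1, 39.7, 39.6, 65.9 and 185 CPM (log2 fold change 1.63, SE 0.460, edgeR adjusted p = 0.993), and HFHF-old replicate 2 set this value. In fibroblast-like cells it had 21.9, 24.5, 20.8, 22.2, 28.4 and 43.6 CPM (edgeR adjusted p = 0.727). In islet-like cells it ranged from 0.361 in old replicate 1 to 15.9 in HFHF-old replicate 2.

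Of the co-stimulation genes, Cd274, the ligand that restrains T cells through PD-1, did not pass the test. It was among the pathway genes with the smallest unadjusted p in 3 classes. In macrophage-like cells it had 23.8, 11.0, 26.4, 22.8, 69.1 and 92.2 CPM, with both HFHF-old rats above the other 4 (log2 fold change against old 1.51, SE 0.360, edgeR adjusted p = 0.654). In dendritic-like cells it had 26.1, 8.64, 61.5, 29.9, 56.5 and 79.1 CPM, where the old rats were above the young ones (1.40, SE 0.483, edgeR adjusted p = 1.000). In B-like cells it had 109, 153, 221, 243, 271 and 284 CPM. Cd80, a ligand of CD28, had 24.4, 14.0, 32.1, 32.8, 41.9 and 38.8 CPM in dendritic-like cells, with the young rats the lowest. Cd80 and Cd40 in macrophage-like cells had log2 fold changes of 1.69 (SE 0.618) and 1.08 (SE 0.329) for old against young, with adjusted p of 0.600 and 0.529 by edgeR. The co-stimulation list thus also holds Cd274, which restrains T cells. All 6 measured genes of this list in macrophage-like cells and all 5 in dendritic-like cells were higher in old than in young rats. Their median log2 fold changes were 0.89 and 0.85, against 0.02 and 0.01 over all genes. None of them passed the test. In the other classes 3 of 4 were higher in B-like, 2 of 4 in endothelial-like, 4 of 6 in fibroblast-like and 3 of 5 in islet-like cells.

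For HFHF-old against old rats the lists were divided as well, and no member passed the test of edgeR. Co-stimulation genes were higher in HFHF-old rats for 2 of 6 in macrophage-like cells (median log2 fold change -0.32), 3 of 5 in dendritic-like, 3 of 4 in B-like, 2 of 4 in endothelial-like, 3 of 6 in fibroblast-like and 1 of 5 in islet-like cells. Peptide loading and processing genes were higher for 3 of 10 in fibroblast-like cells (median -0.48), 7 of 11 in dendritic-like, 6 of 10 in B-like, 7 of 11 in macrophage-like, 6 of 8 in endothelial-like and 5 of 9 in islet-like cells. Interferon gamma response genes were higher for 11 of 15 in endothelial-like cells (median 0.46), 6 of 15 in dendritic-like, 6 of 10 in B-like, 9 of 15 in macrophage-like, 9 of 15 in fibroblast-like and 10 of 14 in islet-like cells. Genes for transcription of class II genes were higher for 9 of 12 in dendritic-like, 6 of 10 in B-like, 7 of 13 in macrophage-like, 4 of 11 in endothelial-like, 6 of 12 in fibroblast-like and 5 of 11 in islet-like cells, with medians from -0.04 to 0.20. The median over all genes lay between 0.00 and 0.04 in the 6 classes.

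Of the other class II loci, RT1-Ha, a gene of the DP family, had 34.1 CPM in dendritic-like and 1.22 in macrophage-like cells as the mean over rats, while RT1-Db2 had 7.50 and 32.1. RT1-Db2 in endothelial-like cells had 5.29, 4.26, 3.61, 1.65, 14.8 and 10.3 CPM (log2 fold change of HFHF-old against old 2.21, SE 0.713, edgeR adjusted p = 0.993). Ctsl and Creb1 in endothelial-like cells and Ctss in islet-like cells, the remaining genes with the smallest unadjusted p in their comparison, had log2 fold changes of -0.84, 0.55 and 0.85 for old against young, with edgeR adjusted p between 0.999 and 1.000. Cd80 in fibroblast-like cells had 1.39, 0.721, 3.54, 2.71, 1.68 and 2.25 CPM.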

How the data were processed

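Droplet-based single-cell libraries were sequenced from the pancreas of 6 rats. The authors ran Cell Ranger and deposited its filtered matrices of integer UMI counts for each gene and barcode, without normalization. The file headers name version 5.0.0, and the submitters' processing notes name Rnor_6.0. The labels gave the groups, and total UMIs for each library ranged from 77387928 to 166875258. The 6 genes, the pathway lists and the tests were chosen with earlier results of these data known.

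Barcodes with fewer than 200 genes, over 25% mitochondrial UMIs or a gene number in the top 1% of all libraries together were left out. HFHF-old replicate 1 kept the lowest share of any library, 11990 of 13250 barcodes, against 17443 of 17724 in young replicate 1. The part of each limit in this was not tested. The 6 genes, the pathway genes and all RT1 genes, 73 in all, were held out of clustering, since they would otherwise have defined the classes. After scaling each cell to 10000 UMIs and taking logs, 2000 variable genes and 30 principal components gave a graph of 15 neighbours, divided with leidenalg 0.10.2 at resolution 1 into 38 clusters. The clusters of B, plasma, dendritic and neutrophil type, with 4861 cells, were clustered again with 20 components, which gave 55 clusters in all. This second round and the number of components were chosen after fewer components had merged these types. Names went by the class whose markers had the highest mean log2 fold, where a log2 fold of 1 or more was needed for 3 markers and for 50% of the list. No name was given where the 10 leading genes held more markers of a different class, or where cells had few UMIs and no leading marker, and 11.2% of cells were unnamed. Of 150 marker entries, 2 were not in the files. Doublet-like barcodes, 8705 in all, were kept and left out as an alternative.

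UMIs were summed for each class and rat with at least 10 cells. Pathway genes were tested on these count sums with edgeR 4.0.16 (filterByExpr, TMM, glmQLFit, glmQLFTest) in 1 fit of all 6 rats for each class, and with DESeq2 1.42.0 as an alternative. For edgeR, SE is the size of the log2 fold change over the square root of F. The text names the 6 genes, pathway genes called or with the 2 smallest unadjusted p in a class and comparison, and the 10 genes most like Cd74. A pathway gene that this rule names is not reported here. Other genes with levels in the text were picked from the lists for their roles. The 2 libraries of a group differ in the animal and in cell recovery together, so p-values measure the spread between animals and libraries together. Reads, protein sequences and the blood and tissue measurements were not analysed here.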

Additional observations from a re-analysis of the deposited data

How the results depend on the processing

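Apart from leaving out a rat, 138 values were recomputed for the counts of calls, the RT1-Bb shares and the class II levels, of which 103 stayed within their limits and 35 moved. The RT1-Bb share in dendritic-like, B-like and macrophage-like cells moved under none of these alternatives by more than the SD of its group.

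For old against young rats, edgeR called 3 pathway genes without a filter on low counts (Cd274 in dendritic-like cells, Cd83 and Ctss in fibroblast-like cells; 1.10% of pathway pairs against 0.840% over all genes), and 0 when any 1 rat was left out. For HFHF-old against old rats, 5 were called without a filter (Cxcl9 in dendritic-like, Cd274, Ctss and Irf1 in fibroblast-like and Irf1 in islet-like cells, 1.83% against 0.840%) and 1 by DESeq2. Leaving out 1 rat gave 0 to 6 calls in that comparison, with 6 without HFHF-old replicate 1, where Gbp5 in endothelial-like cells and Cd83, Ctss, Lgmn, Prdm1 and Spi1 in fibroblast-like cells passed (2.51% against 0.319%), and 1 each without HFHF-old replicate 2 (Gbp5 in macrophage-like cells), young replicate 1 and young replicate 2 (Irf1 in islet-like cells), which are 0.402% to 0.420% against 0.0598% to 0.237% over all genes. The cause was not tested. Same-numbered rats did not deviate together in every pair (correlations from -0.134 to 0.277), although in dendritic-like cells all 3 correlations were positive (0.156 to 0.277). The labels name nothing that same-numbered rats share, so the numbers were not taken as pairs. With the replicate number as a block, 0 pathway pairs were called for age and 0 for diet, against 0.0165% and 0.0105% over all genes.

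The class II level in CPM moved as follows. With doublet-like cells left out it was 38168, 50461 and 39663 in dendritic-like cells of the 3 groups (young first, HFHF-old last), 15208 in young B-like cells, 379.9 and 368 in endothelial-like cells of young and HFHF-old rats, 203 and 327 in fibroblast-like cells and 205 and 297 in islet-like cells of young and old rats. At resolution 0.5 it was 35176 and 35464 in dendritic-like cells of young and HFHF-old rats, 14739 in young B-like cells, 676 and 1773 in fibroblast-like cells and 1178 and 1336 in islet-like cells of young and old rats. With free RNA subtracted it was 39657, 53164 and 43376 in dendritic-like cells of the 3 groups, 15273 and 42082 in B-like cells of young and HFHF-old rats, 234 and 0 in endothelial-like cells of young and HFHF-old rats, 23.5 and 34.0 in fibroblast-like cells and 0 and 49.6 in islet-like cells of young and old rats. The estimate rests on few acinar transcripts in HFHF-old replicate 2. Without cells under 1000 UMIs it was 14274 in young B-like cells, and with enzyme and hormone genes left out of the total it was 14362 in young B-like cells and 847 and 1767 in islet-like cells of young and old rats.

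Leaving out each rat gave levels of 35402 to 35729, 42722 to 48991 and 35912 to 36360.1 in dendritic-like cells, 14252 to 14265, 17750 to 19917 and 13170 to 16233 in B-like cells, and 6883 to 12703, 19425 to 23150 and 4290 to 29166 in macrophage-like cells of the 3 groups. With 2 rats in a group, every such value is that of 1 rat and cannot leave the SD of its group, so it says nothing of stability.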

Other observations

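RT1-A1, a classical MHC class I gene outside the class II region that was picked out after its values had been seen, was also highest in the old rats. In dendritic-like cells it had 764, 522, 2049.6, 1806, 446 and 537 CPM, in B-like cells 151, 148, 968, 793, 160.2 and 250.2, and in macrophage-like cells 544, 451, 1634, 1397, 227 and 683. Both old rats were the highest of the 6 in each of the 3 classes. RT1-DOb, also picked afterwards, was highest in old replicate 1 in dendritic-like cells, at 189.6 CPM against 64.6 to 122 in the other rats, and in old replicate 2 it was the lowest. These 2 genes share the rats and libraries with RT1-Bb, and alleles at the MHC were not read.

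The class II sum over a whole library, over all its cells, was 4820.4, 5029, 11982, 9076, 3785 and 1085 CPM. Dendritic-like cells held 28.8%, 14.4%, 10.9%, 34.0%, 27.6% and 38.9% of those UMIs and macrophage-like cells 32.0%, 32.3%, 43.7%, 28.7%, 34.2% and 12.7%. Unnamed cells held 24.1%, 9.98%, 37.1%, 24.7%, 29.0% and 19.9%. In young replicate 2, 38.6% lay in 5249 acinar-like cells, against 0.00856% to 1.49% in the other libraries. That class also held 64500 UMIs of the macrophage markers of the C1q genes, so the 38.6% was not read as that of acinar cells alone.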
